A study of Homo sapiens with 45 samples.

Results

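The genes described here are 49 nuclear genes whose products are subunits of the mitochondrial respiratory chain and ATP synthase, out of 60624 genes listed in each of 4 tables of raw counts. They were taken by name, with earlier results of these data known. They comprise 25 genes of complex I, 4 of complex II, 6 of complex III, 8 of complex IV and 6 of complex V. All 49 were found in every table. The cells were of the human line T47D, from a luminal breast cancer that expresses the oestrogen receptor, and ZHX2 is a transcription factor with zinc fingers and homeoboxes. There were 45 polyA RNA libraries, in 15 groups of 3.

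In the shRNA table the groups were hypoxic cells in which a hairpin targeted ZHX2 (shZHX2), hypoxic cells with a control hairpin (shCtrl), and shCtrl cells in normoxia. In the hexanediol table, cells kept in hypoxia received no hexanediol (control) or 0.5% or 1% 1,6-hexanediol for 24 h. 1,6-Hexanediol is an alcohol used to dissolve phase-separated condensates. In the rescue table all cells were hypoxic, and shZHX2 cells carried ZHX2 forms labelled PA, SA or WT, or an empty vector, beside shCtrl cells with vector. In the sgRNA table, also all hypoxic, the groups were labelled sgZHX2 and sgCtrl, and teton_sgZHX2 and teton_control. All cells of the shRNA, rescue and sgRNA tables came from lentiviral infection and drug selection of a single cell line, and the labels do not define the PA and SA changes, the kind of sgRNA system, the inducer or the oxygen level. In bulk libraries such as these, fewer cells of a kind and less RNA per cell cannot be told apart. The stated purpose of the series was to find genes induced by hypoxia that ZHX2 regulates positively, and to follow them when phase separation is disturbed.

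Complex I oxidises NADH and complex II oxidises succinate, and both pass electrons to ubiquinone. Complex III hands the electrons to cytochrome c, complex IV reduces oxygen to water, and complex V makes ATP from the proton gradient that complexes I, III and IV build. Apart from complex II, each complex joins subunits made in the cytosol from nuclear genes with subunits made in the mitochondrion from mitochondrial DNA. Cells in hypoxia are known to lower oxygen use through HIF-1, among other ways by inducing PDK1, which blocks entry of pyruvate into the mitochondrial citrate cycle, and NDUFA4L2, a relative of a respiratory chain subunit. The nuclear respiratory factor NRF1 and the ETS-family factor GABPA are known activators of many of these genes.

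Promoters of 41 of the 49 genes were matched by symbol in the RefSeq promoter table (GRCh38.p14). The 250 bases before the transcription start are shown for the genes on which the results below turn: the pair with the largest falls in hypoxia (NDUFS1, UQCRC2), a core subunit of complex II and a stalk subunit of complex V with the NRF1 word (SDHA, ATP5PO), and 3 of the 4 genes that were lower with shZHX2 in both tables. Capitals mark matches, on either strand, to the NRF1 word (GCGCA, then any base, then GCGC), the GABPA/ETS word CCGGAAG and the core of the HIF-binding word, ACGTG.
NDUFS1: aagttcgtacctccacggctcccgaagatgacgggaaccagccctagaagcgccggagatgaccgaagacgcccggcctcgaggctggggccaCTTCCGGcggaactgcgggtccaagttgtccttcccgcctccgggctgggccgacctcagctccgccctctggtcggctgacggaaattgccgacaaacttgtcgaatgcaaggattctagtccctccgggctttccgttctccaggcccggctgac
UQCRC2: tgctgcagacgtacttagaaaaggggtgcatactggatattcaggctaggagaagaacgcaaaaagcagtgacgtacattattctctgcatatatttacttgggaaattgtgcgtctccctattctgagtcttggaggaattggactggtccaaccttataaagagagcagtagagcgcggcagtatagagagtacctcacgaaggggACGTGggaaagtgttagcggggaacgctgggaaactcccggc
SDHA: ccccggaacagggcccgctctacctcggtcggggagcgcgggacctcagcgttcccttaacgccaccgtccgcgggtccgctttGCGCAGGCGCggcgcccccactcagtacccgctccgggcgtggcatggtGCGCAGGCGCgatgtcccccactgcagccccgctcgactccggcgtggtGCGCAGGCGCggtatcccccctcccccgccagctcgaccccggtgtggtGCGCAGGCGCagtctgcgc
ATP5PO: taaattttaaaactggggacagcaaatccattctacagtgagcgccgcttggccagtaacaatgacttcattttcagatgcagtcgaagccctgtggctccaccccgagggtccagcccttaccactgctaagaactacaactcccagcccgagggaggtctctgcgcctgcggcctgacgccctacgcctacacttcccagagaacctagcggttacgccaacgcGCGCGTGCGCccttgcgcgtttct
NDUFA10: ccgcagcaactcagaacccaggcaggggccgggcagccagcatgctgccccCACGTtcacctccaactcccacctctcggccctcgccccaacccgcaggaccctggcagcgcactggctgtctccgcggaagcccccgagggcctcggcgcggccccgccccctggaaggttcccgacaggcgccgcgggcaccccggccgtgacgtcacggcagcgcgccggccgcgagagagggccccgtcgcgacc
NDUFV1: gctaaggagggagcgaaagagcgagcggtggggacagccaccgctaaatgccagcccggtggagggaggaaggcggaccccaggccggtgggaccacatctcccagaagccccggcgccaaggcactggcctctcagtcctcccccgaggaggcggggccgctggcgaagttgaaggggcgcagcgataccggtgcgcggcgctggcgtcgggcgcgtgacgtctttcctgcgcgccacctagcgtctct
ATP5PB: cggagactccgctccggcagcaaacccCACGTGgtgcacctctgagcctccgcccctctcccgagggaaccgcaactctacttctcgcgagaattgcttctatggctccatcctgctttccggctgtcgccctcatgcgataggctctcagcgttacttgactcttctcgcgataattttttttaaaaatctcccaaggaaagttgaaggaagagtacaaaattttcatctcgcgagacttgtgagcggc

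These stretches lie upstream of the RefSeq starts, some of them inside the gene spans given below, at chr2:206159445-206159694 (minus strand) for NDUFS1, chr16:21953111-21953360 (plus) for UQCRC2, chr5:218070-218319 (plus) for SDHA, chr21:33915805-33916054 (minus) for ATP5PO, chr2:240025343-240025592 (minus) for NDUFA10, chr11:67606686-67606935 (plus) for NDUFV1 and chr1:111449214-111449463 (plus) for ATP5PB. SDHA held the NRF1 word 4 times, beginning 166, 117, 68 and 19 bases before the start, and ATP5PO held it at 24 bases. NDUFS1 held the GABPA/ETS word at 157 bases. UQCRC2 held the HIF core at 42 bases and NDUFA10 at 199 bases. In ATP5PB the core was read on both strands of a single palindrome, at 223 and 222 bases, so its 2 matches overlap. NDUFV1 held no match in this window. Over the 41 matched promoters, 10 (24.4%) held the NRF1 word, against 5.53% of all 27305 promoters of the table, and 11 (26.8%) held the GABPA/ETS word, against 8.82%. The HIF core was in 9 (22%), against 18.7%, and the ESRRA word CAAGGTCA in 1 (2.44%), against 1.17%. These are matches of letters and not measured binding.

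Levels are given as CPM, counts of a gene divided by the library's total and scaled to 1e6, with library sizes scaled by TMM, a method that centres the bulk of genes on no change. Total counts were 14111216 to 27217814 per library. Tests are edgeR's quasi-likelihood test over all genes of a table, a gene being called at a Benjamini-Hochberg adjusted p below 0.05, and changes are log2 fold changes ± SE. Because scaling decides the direction of many small changes here, the counts over all the subunit genes and over the other gene lists are also given with library size as the only scaling, and with offsets for GC content and transcript length in each library; counts without such values are those with TMM. Whether the 3 libraries of a group came from separate cultures is not stated, so the p-values here rest on the spread between these libraries, which may be technical. The 8 luminal markers summed to 3555 to 59152 CPM over all libraries and the markers of other cell types (14 genes, led by COL1A1) to 14.6 to 73.2 CPM. The ZHX2 transcript had 4.91, 3.75 and 6.79 CPM in shZHX2 cells in hypoxia, against 21.6, 18.3 and 16.4 CPM in shCtrl cells in hypoxia. The libraries labelled sgZHX2 did not have a lower level of it, as given with the sgRNA results.

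Per kilobase of transcript, the genes spanned a wide range of levels in normoxia. COX4I1, a regulatory subunit of complex IV, was highest at 1030 CPM per kb, ahead of ATP5F1B, the catalytic beta subunit of ATP synthase, at 944, COX8A at 645, cytochrome c1 (CYC1) at 506 and the iron-sulphur subunit NDUFS8 at 344. At the low end were SDHA, the flavoprotein of complex II, at 9.93 CPM per kb and NDUFS1, the largest iron-sulphur subunit of complex I, at 8.11. NDUFA13 stood at 1.81, NDUFA9 at 0.324 and NDUFV2 at 0.128 CPM per kb. NDUFV2 was too low to be tested in the shRNA table. The genes had short transcripts, with a median of 958 bases against 2656 for all genes tested, and a median GC content of 51.1% against 50.6%. Named pseudogenes exist for 28 of the 49, and 18 share at least 10% of their exon bases with another gene, 40 having either, so their counts may be split or shared with other loci.

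In hypoxia the largest changes of the subunit genes with TMM were falls in complexes I and III, and the direction of most others rested on the scaling. With the offsets the rise of SDHC, given below, was larger than the fall of NDUFS1. Of 48 genes tested in shCtrl cells, 27 were higher and 13 lower in hypoxia than in normoxia with TMM scaling, but 3 were higher and 35 lower by library size alone, and 14 were higher and 29 lower with GC and length offsets. Of all genes tested, 43.1% were higher and 36.8% lower, so the share of subunit genes called was near that of all genes. By library size 22.7% of all genes were higher and 54.1% lower, and with the offsets 28.9% and 41.7%. The median change of the subunit genes was 0.15 with TMM, -0.34 by library size and -0.33 with the offsets, against 0.12, -0.36 and -0.13 for all genes. Library size alone moved the median of all genes by -0.48 and the offsets moved it by -0.25. The genes took 0.80% to 0.804% of all counts in hypoxia and 0.996% to 1.01% in normoxia, whereas their summed TMM-scaled level was 9446 to 9530 CPM in hypoxia and 8411 to 8507 CPM in normoxia.

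In complex I, NDUFS1 (ENSG00000023228, chromosome 2, 206114817 to 206159603, minus strand, GRCh38) had 10.2, 8.54 and 8.52 CPM in hypoxia, against 56.1, 55.4 and 61.1 CPM in normoxia. The hypoxic libraries lay far below all normoxic ones, and the gene fell by 2.67 ± 0.08 on the log2 scale (adjusted p = 9.73e-39), or by 1.60 with GC and length offsets. In complex III, UQCRC2 (ENSG00000140740, chromosome 16, 21952660 to 21983660, plus strand), a core protein, had 25.8, 26.9 and 27.1 CPM in hypoxia, against 144, 139 and 141 CPM in normoxia. It fell by 2.41 ± 0.05 (adjusted p = 5.26e-45) with no overlap of libraries. The other core protein of the same complex, UQCRC1, had 656, 657 and 641 CPM in hypoxia, against 488, 473 and 487 CPM in normoxia. It was 0.43 ± 0.03 higher with TMM, but its change was -0.05 by library size alone and -0.46 with the offsets. Of the 25 complex I genes 24 were tested, with 12 higher and 7 lower by TMM, 1 and 19 by library size, and 4 and 16 with the offsets. NDUFA13, an accessory subunit also known as GRIM-19, showed the largest rise of complex I at 0.97 ± 0.21, from low counts (2.93, 3.23 and 4.38 CPM in hypoxia, against 1.54, 1.80 and 2.04 CPM in normoxia), and its change was -0.15 with the offsets.

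With TMM and by library size alone the membrane anchors of complex II went in opposite directions, but with the offsets both changes were positive. SDHC (ENSG00000143252, chromosome 1, 161314257 to 161375340, plus strand) had 307, 309 and 314 CPM in hypoxia, against 191, 190 and 194 CPM in normoxia, and rose by 0.69 ± 0.03 (adjusted p = 2.83e-30), by 0.21 with library size alone and by 2.12 with the offsets. The other anchor, SDHD, had 21.6, 20.9 and 21.2 CPM in hypoxia, against 32.3, 33.9 and 33.9 CPM in normoxia, a change of -0.65 ± 0.07 that was 0.36 with the offsets. In both genes the groups did not overlap. SDHA changed by -0.28 ± 0.08, and SDHB, the iron-sulphur subunit, by 0.10 ± 0.05, which missed the threshold (adjusted p = 0.052) and passed it without the first hypoxic library (0.12).

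All 8 complex IV genes were called in hypoxia, but their direction rested on the scaling: 7 were higher and 1 lower with TMM (median 0.40), none was higher and 5 were lower by library size, and 3 were higher and 5 lower with the offsets. COX4I1 had 984, 961 and 990.5 CPM in hypoxia, against 719, 737 and 757 CPM in normoxia, a change of 0.41 ± 0.03 with TMM, -0.08 by library size and -0.49 with the offsets. COX8A, the gene with the largest TMM rise of the complex at 0.54 ± 0.03, changed by 0.05 by library size and by -0.67 with the offsets. COX5A fell by 0.20 ± 0.04, and by 0.69 and 0.71 with the alternatives. The hypoxia-linked isoform COX4I2, which can replace COX4I1 in other tissues, reached at most 0.387 CPM in any library of any table.

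In complex V, ATP5PO (ENSG00000241837, chromosome 21, 33903453 to 33915980, minus strand), the stalk subunit known as OSCP, had 26.8, 25.2 and 26.3 CPM in hypoxia, against 17.8, 15.7 and 16.04 CPM in normoxia. It rose by 0.66 ± 0.07, by 0.18 by library size and by 0.27 with the offsets. ATP5F1A, the alpha subunit, had 251, 261 and 267 CPM in hypoxia, against 433, 414 and 436 CPM in normoxia, and fell by 0.72 ± 0.03. ATP5F1B, its partner in the catalytic ring, changed by 0.11 ± 0.02 with TMM and -0.38 by library size. Across the 49 genes, only SDHC and ATP5PO were higher with all 3 scalings, and 7 were lower with all 3 (NDUFS1, UQCRC2, NDUFA12, ATP5F1A, NDUFS8, SDHA and COX5A); NDUFA12 and NDUFS8, both of complex I, were picked out after their values were seen. Of all genes tested, 14.3% were higher and 22.9% lower with all 3. The change in hypoxia followed GC content across genes, with a Spearman rho of 0.71 over 14816 tested genes that had a GC value and 0.32 over the 48 subunit genes, which is a description of genes that share the same libraries.

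**Figure D1:**
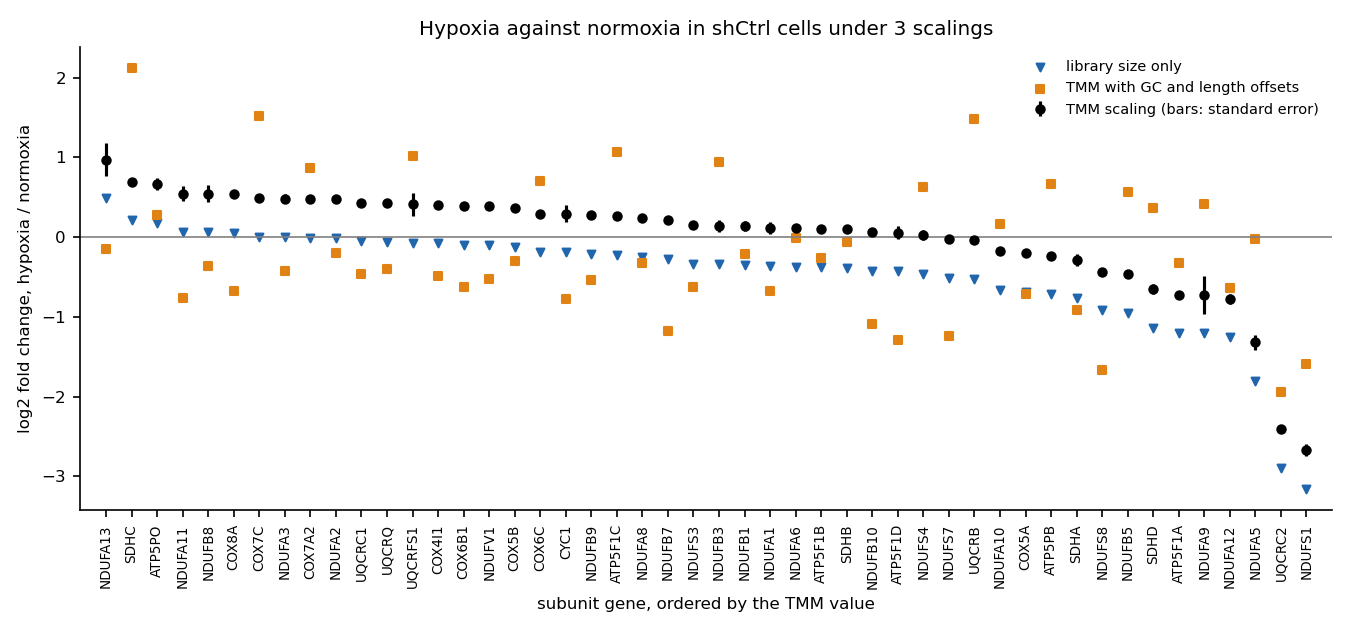
Log2 fold change of each tested subunit gene in hypoxia against normoxia (shCtrl cells, 3 libraries each). Marks show TMM scaling, library size alone, and GC and length offsets, with genes ordered by the TMM value. With TMM 27 genes were higher and 13 lower, with library size 3 and 35, and with the offsets 14 and 29; NDUFS1 and UQCRC2 stay at the bottom in all 3.

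Genes of the same pathway outside the 49 gave the setting for these values. NDUFA4L2 had 6.25, 5.00 and 5.84 CPM in hypoxia, against 0.512, 1.05 and 1.21 CPM in normoxia, a rise of 2.60 ± 0.23 (adjusted p = 4.51e-15; 1.49 with the offsets). PDK1 rose by 2.68 ± 0.09, BNIP3, which acts in mitophagy, by 4.57 ± 0.04 and MXI1, a MYC antagonist, by 2.35 ± 0.09. The protease LONP1 changed by 0.75 ± 0.03 (-0.17 with the offsets) and HIGD1A, which binds complex IV, by -0.67 ± 0.08 (0.55 with the offsets). Of 30 further nuclear subunit genes, 16 were higher and 8 lower with TMM, 4 and 21 by library size, and 12 and 14 with the offsets. NDUFA4, a subunit of complex IV, showed the largest rise of them (0.73 ± 0.03). All 13 mitochondrially encoded subunit transcripts were higher with TMM (median 1.22), 10 by library size and 13 with the offsets, from 0.46 ± 0.02 for MT-CO3 (-0.02 by library size) to 2.45 ± 0.06 for MT-ND6, whose reads cannot be told from antisense reads unless strand was used in counting. Of 44 assembly factor genes 15 were higher and 21 lower with TMM, 2 and 36 by library size, and 15 and 20 with the offsets. Of 13 biogenesis regulators 4 were higher and 9 lower with TMM, 1 and 12 by library size, and none and 10 with the offsets. Of 14 genes of the citrate cycle and pyruvate dehydrogenase 4 were higher and 8 lower with TMM, 1 and 11 by library size, and 1 and 12 with the offsets. The furthest were the complex I assembly factor NDUFAF1 (-2.0 ± 0.17), GABPA (-2.49 ± 0.14) and the dehydrogenase subunit DLD (-2.61 ± 0.10) on the lower side, and SDHAF4 (1.11 ± 0.12), the mitochondrial RNA polymerase POLRMT (0.60 ± 0.04, -0.34 with the offsets) and IDH2 (0.81 ± 0.02) on the higher side. Mitochondrially encoded transcripts took 9.12% to 9.57% of counts in hypoxia and 4.55% to 4.76% in normoxia, and the luminal markers summed to 58472 to 59152 CPM in hypoxia and 22312 to 24073 CPM in normoxia. The markers of other cell types summed to 49.1 to 53.7 CPM in hypoxia and 35.9 to 40.0 CPM in normoxia. Their part in the subunit results was not tested.

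With shZHX2 in hypoxia, subunit genes changed in both directions, and with TMM no complex IV or complex V gene was called higher. Of 48 tested, 14 were higher and 24 lower in shZHX2 than in shCtrl cells with TMM, but 28 were higher and 9 lower by library size, and 13 were higher and 21 lower with the offsets. Among all genes tested there, 33.6% were higher and 33.2% lower, with 47.5% and 22.8% by library size and 33.6% and 32.5% with the offsets. Library size alone moved the median of all genes by 0.23, and the median of the subunit genes was -0.10 with TMM, 0.14 by library size and -0.06 with the offsets. Complex IV had none higher and 7 lower with TMM (median -0.20), 3 higher and 1 lower by library size, and none higher and 6 lower with the offsets. Complex V had 3 lower with TMM, 3 higher and 1 lower by library size, and 4 lower with the offsets. With all 3 scalings 9 of the 48 genes were higher and 9 lower, where 29.1% and 22.5% of all genes were.

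NDUFS1, which had the largest fall in hypoxia with TMM, had 16.1, 15.3 and 16.2 CPM in shZHX2 cells, against 10.2, 8.54 and 8.52 CPM in shCtrl cells. It was 0.81 ± 0.09 higher (adjusted p = 5.09e-12), and the groups did not overlap, although the shZHX2 libraries remained below the 55.4 to 61.1 CPM of normoxia. NDUFA5, an accessory subunit of complex I named after its values were seen, rose by 0.57 ± 0.10, SDHD by 0.43 ± 0.07 and UQCRB, a small subunit of complex III, by 0.38 ± 0.04. On the lower side, NDUFA10 (ENSG00000130414, chromosome 2, 239892450 to 240025402, minus strand), an accessory subunit of complex I, had 70.2, 72.2 and 70.7 CPM in shZHX2 cells, against 110, 108 and 114 CPM in shCtrl cells. NDUFB5 (ENSG00000136521, chromosome 3, 179604690 to 179627647, plus strand), of the membrane arm, had 69.2, 75.3 and 75.7 CPM in shZHX2 cells, against 112, 114 and 117 CPM in shCtrl cells. Both lay below every shCtrl library and fell by 0.64 ± 0.04 (adjusted p = 1.99e-20 for NDUFA10 and 4.31e-21 for NDUFB5). NDUFV1, the flavoprotein that takes electrons from NADH, fell by 0.38 ± 0.03 (adjusted p = 8.98e-19). ATP5PB, the b subunit of the peripheral stalk, fell by 0.36 ± 0.04 (adjusted p = 4.86e-11). NDUFB8 was lowest in complex I at -0.68 ± 0.11, UQCRQ in complex III at -0.64 ± 0.03 and COX5B in complex IV at -0.55 ± 0.03.

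**Figure D2:**
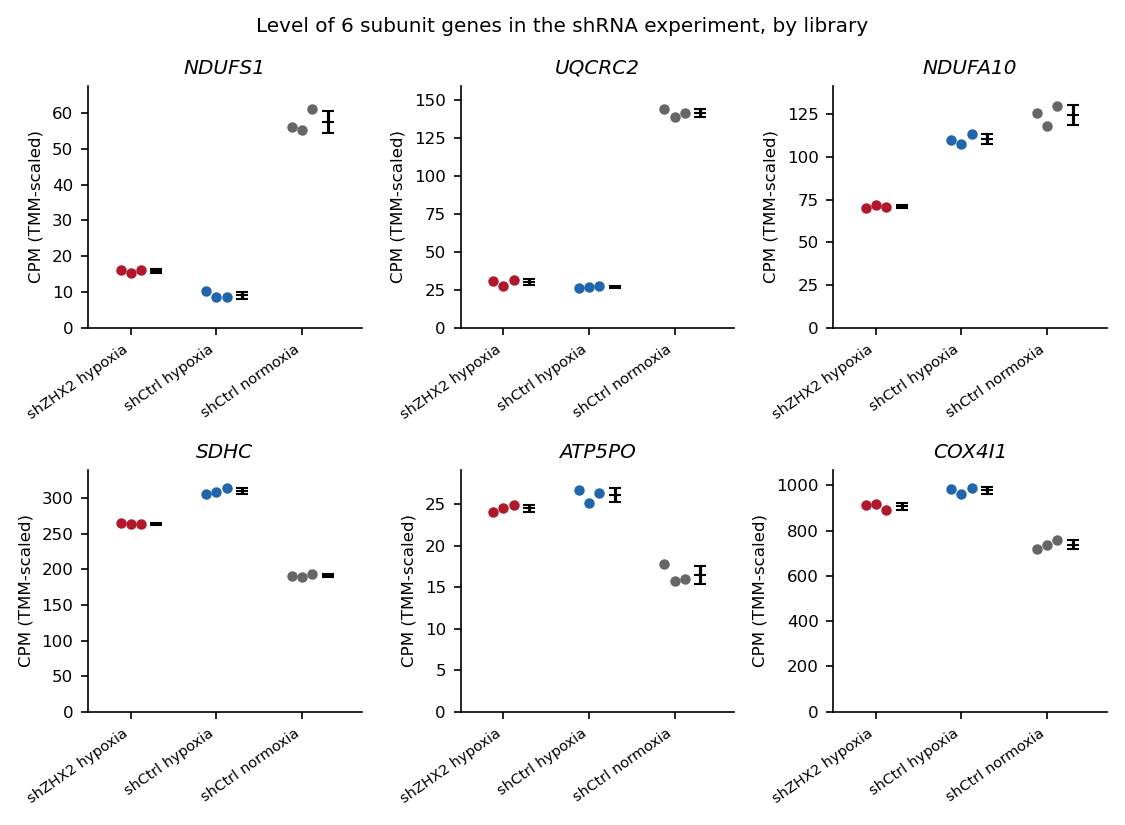
CPM (TMM-scaled) of 6 subunit genes in the shRNA table, for shZHX2 cells in hypoxia, shCtrl cells in hypoxia and shCtrl cells in normoxia; points are libraries, bars the mean with SD (n = 3). NDUFS1 and UQCRC2 are low in both hypoxic groups, NDUFA10 is lowest in shZHX2 cells, and SDHC, ATP5PO and COX4I1 are higher in both hypoxic groups than in normoxia on this scale.

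The comparisons of hypoxia with normoxia and of shZHX2 with shCtrl share the shCtrl hypoxia libraries, so their signs are tied; the values of both are given above and no relation between them was computed. In shZHX2 cells mitochondrially encoded transcripts took 11.9% to 12.4% of counts, and the luminal markers summed to 27288 to 27566 CPM, against 9.12% to 9.57% and 58472 to 59152 CPM in shCtrl cells in hypoxia. The markers of other cell types summed to 70.6 to 73.2 CPM in shZHX2 cells and 49.1 to 53.7 CPM in shCtrl cells in hypoxia. Their part in the result was not tested.

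Hexanediol lowered more of these genes than it raised. At 0.5%, none of the 49 was higher and 23 were lower than in the hypoxic control (with library size alone 2 higher and 14 lower, with offsets 1 and 23), where 19.4% and 19.6% of all genes were higher and lower. At 1%, 7 were higher and 27 lower (10 and 17 by library size, 7 and 19 with offsets), where 30.2% and 32.3% of all genes were higher and lower. By library size the shares of all genes higher and lower were 27.1% and 14% at 0.5% and 37.5% and 25.2% at 1%, and with the offsets 19.3% and 19.7% at 0.5% and 28.2% and 32.2% at 1%. The medians were -0.23 at 0.5% and -0.30 at 1% with TMM, -0.11 and -0.12 by library size, and -0.28 and -0.16 with the offsets. By complex at 0.5%, 10 genes of complex I, 1 of II, 2 of III, 5 of IV (2 by library size) and 5 of V were lower. At 1%, 5 genes of complex I were higher and 11 lower, complex II had 1 and 2, complex IV 1 and 7 (1 and 3 by library size), and complexes III and V had none higher with 2 and 5 lower. Both doses were compared with the same 3 control libraries.

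NDUFV1 (ENSG00000167792, chromosome 11, 67605653 to 67612554, plus strand) had 155, 166 and 145 CPM without hexanediol, 118, 128 and 107 CPM at 0.5% and 75.0, 81.5 and 76.7 CPM at 1%. The 3 groups did not overlap, and the changes from control were -0.40 ± 0.08 (adjusted p = 0.00134) and -1.0 ± 0.08 (adjusted p = 8.63e-08). UQCRQ had 275, 274 and 254 CPM without hexanediol, 176, 206 and 151 CPM at 0.5% and 137, 153 and 133 CPM at 1%, with changes of -0.59 ± 0.10 and -0.92 ± 0.10; here the doses overlapped each other but not the control. SDHC had 80.5, 81.3 and 79.7 CPM without hexanediol, 72.8, 79.3 and 69.1 CPM at 0.5% and 39.5, 48.95 and 39.9 CPM at 1%. Its change was -0.91 ± 0.09 at 1%, while -0.13 ± 0.09 at 0.5% missed the threshold. COX4I1 was 0.35 ± 0.08 lower at 0.5% and 0.49 ± 0.08 lower at 1%, and SDHA 0.59 ± 0.14 and 0.77 ± 0.14 lower.

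The main exception was NDUFV2, the partner of NDUFV1 in the NADH-binding module. It had 2.02, 1.80 and 2.02 CPM without hexanediol, 2.32, 1.85 and 2.08 CPM at 0.5% and 8.28, 6.48 and 7.08 CPM at 1%. All 3 libraries at 1% stood above the other 6, a change of 1.90 ± 0.17 from control (adjusted p = 2.5e-07) at a level far below its partner, and 28.4% of its exon bases are shared with another gene. SDHD rose by 0.40 ± 0.09 at 1% with TMM, but no complex II gene was called higher there with the offsets. COX5A rose by 0.36 ± 0.12 at 1%. Its call was lost without the first or the third control library or the second or the third library at 1% (0.33 to 0.37). Between the doses, 9 genes were higher and 10 lower at 1% than at 0.5% (13 and 8 by library size, 7 and 8 with the offsets), where 28.3% and 27.7% of all genes were (31% and 25.3% by library size, 26% and 27.5% with the offsets). SDHC changed by -0.78 ± 0.09, NDUFV1 by -0.60 ± 0.08 and ATP5F1D, of the central stalk, by -0.66 ± 0.20 (-0.13 with the offsets, and -0.48 and no longer called without the first library at 0.5%). The second library of each dose stood apart from the others across genes. At 0.5% the chi-square per degree of freedom between libraries was 25.0 and 23.1 for pairs with the second library and 3.10 for the other pair. At 1% it was 8.46 and 8.58, against 1.90. In PDK1 the libraries had 68.0, 69.4 and 65.3 CPM in the control, 34.4, 4.10 and 33.2 CPM at 0.5% and 19.9, 6.87 and 23.7 CPM at 1%. Without both second treated libraries, 34 genes were lower at 0.5% and 32 at 1%. At 0.5% the count of lower genes was 14 without the second control library and 14 without the third library at 0.5%, and between the doses the count of higher genes was 14 without the second library at 0.5% and that of lower genes 6 without the first or the third library at 1%. The luminal marker sum was 24562 to 27420 CPM in the control, 10180 to 15052 CPM at 0.5% and 3555 to 3789 CPM at 1%, and its part in the result was not tested. Of the 13 mitochondrially encoded transcripts 3 were lower at 0.5% and 12 at 1% (median -1.26), led by MT-CO3 at -2.56 ± 0.13.

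In the rescue table, shZHX2 with vector had more genes higher than lower, the reverse of the TMM count in the shRNA table. All 49 genes were tested, and 33 rose and 6 fell in shZHX2 against shCtrl cells with vector (31 and 8 by library size, 30 and 6 with offsets), where 33.9% and 35.3% of all genes were (32.9% and 36.1% by library size, 33.2% and 33.2% with offsets), and the median was 0.42 (0.41 by library size, 0.22 with offsets). All 8 complex IV genes were higher (median 0.52; 7 by library size, 6 with offsets). The ZHX2 transcript had 7.07, 6.24 and 7.27 CPM in shZHX2 cells, against 31.2, 34.3 and 30.5 CPM in shCtrl cells, a fall of 2.22 ± 0.07. The largest rises were those of NDUFA3, an accessory subunit of complex I, at 1.01 ± 0.08 (adjusted p = 6.79e-09), and COX7A2 (ENSG00000112695, chromosome 6, 75237675 to 75250323, minus strand), a complex IV subunit, at 0.96 ± 0.03 (adjusted p = 7.32e-44). COX7A2 had 382, 394 and 394 CPM in shZHX2 cells, against 191, 210 and 198 CPM in shCtrl cells, without overlap.

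The tables of shRNA and rescue share no library, so their 2 comparisons of shZHX2 with shCtrl in hypoxia can be set side by side. Of the 24 genes lower in the shRNA table, 4 (16.7%) were also lower in the rescue table, where they made up 4 of 6 (66.7%): ATP5PB, NDUFA10, NDUFB5 and NDUFV1. They were picked out after their values were seen. A further 19 of the 24 (79.2%) were higher in the rescue table, 57.6% of its 33. Among them were UQCRQ (-0.64 ± 0.03 in the shRNA table and 0.65 ± 0.11 in the rescue table), COX5B (-0.55 ± 0.03 and 0.52 ± 0.03) and NDUFA3 (-0.59 ± 0.06 and 1.01 ± 0.08). These overlaps are of TMM calls. Of the 24 genes, 9 were lower in the shRNA table with all 3 scalings, these 3 included. By library size alone 28 genes were higher and 9 lower there. The shares of all genes called alike or oppositely in the 2 tables were not computed. Of the 14 genes higher in the shRNA table, 8 (57.1%) were higher in the rescue table, 24.2% of its 33, and 2 (14.3%), NDUFS1 and UQCRC2, were lower, 33.3% of its 6. For NDUFS1 the change with shZHX2 was 0.81 ± 0.09 in the shRNA table and -0.10 ± 0.04 in the rescue table, where it was 0.20 with the offsets and was not called without the second or the third shCtrl library or the third shZHX2 library (-0.10 to -0.07). UQCRC2 changed by 0.17 ± 0.06 and -0.11 ± 0.03, the first not being called without the third shZHX2 library (0.14).

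The 4 genes lower in both tables were higher with WT ZHX2 than with vector in every scaling. They had been picked out as low in these same vector libraries, which favours a rise against vector. The comparison is therefore not independent of their choice. NDUFA10 had 32.8, 32.5 and 33.9 CPM with PA, 43.9, 42.7 and 42.1 CPM with SA and 61.0, 60.3 and 60.7 CPM with WT. It had 35.2, 35.5 and 37.1 CPM with vector and 63.8, 64.0 and 61.0 CPM in shCtrl cells. The WT libraries stood close to those of shCtrl cells, the SA libraries between WT and vector, and the PA libraries below all others. The changes were 0.75 ± 0.04 for WT against vector (adjusted p = 3.61e-26), -0.88 ± 0.04 for PA against WT (adjusted p = 9.79e-30) and -0.50 ± 0.04 for SA against WT (adjusted p = 2.48e-17). Against vector, PA changed it by -0.12 ± 0.05 (0.03 by library size, and -0.12 to -0.10 and no longer called without the first or second PA library or the third vector library) and SA by 0.25 ± 0.05.

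ATP5PB (ENSG00000116459, chromosome 1, 111448864 to 111462773, plus strand) had 110, 104 and 107 CPM with PA, 121, 122 and 121 CPM with SA and 174, 162 and 174 CPM with WT, against 89.5, 86.4 and 90.8 CPM with vector, while shCtrl cells had 116, 123 and 118 CPM. WT was thus above shCtrl cells, and PA and SA lay between vector and WT. NDUFB5 had 72.1, 68.0 and 66.6 CPM with PA, 90.8, 85.0 and 89.5 CPM with SA and 101, 100.3 and 102 CPM with WT, against 65.1, 67.1 and 69.3 CPM with vector and 85.6, 84.1 and 84.9 CPM in shCtrl cells. PA libraries overlapped those with vector (0.04 ± 0.04), and SA against WT was -0.19 ± 0.04 with TMM but -0.00 with the offsets. NDUFV1 had 210, 201 and 207 CPM with PA, 232, 235 and 228 CPM with SA and 339, 330 and 343 CPM with WT, against 260, 266 and 260 CPM with vector and 360, 353 and 338 CPM in shCtrl cells. Both PA and SA were below vector in this gene, by 0.35 ± 0.03 for PA and 0.18 ± 0.03 for SA, the SA change being 0.01 with the offsets. PA and SA against WT were -0.72 ± 0.03 and -0.54 ± 0.03.

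**Figure D3:**
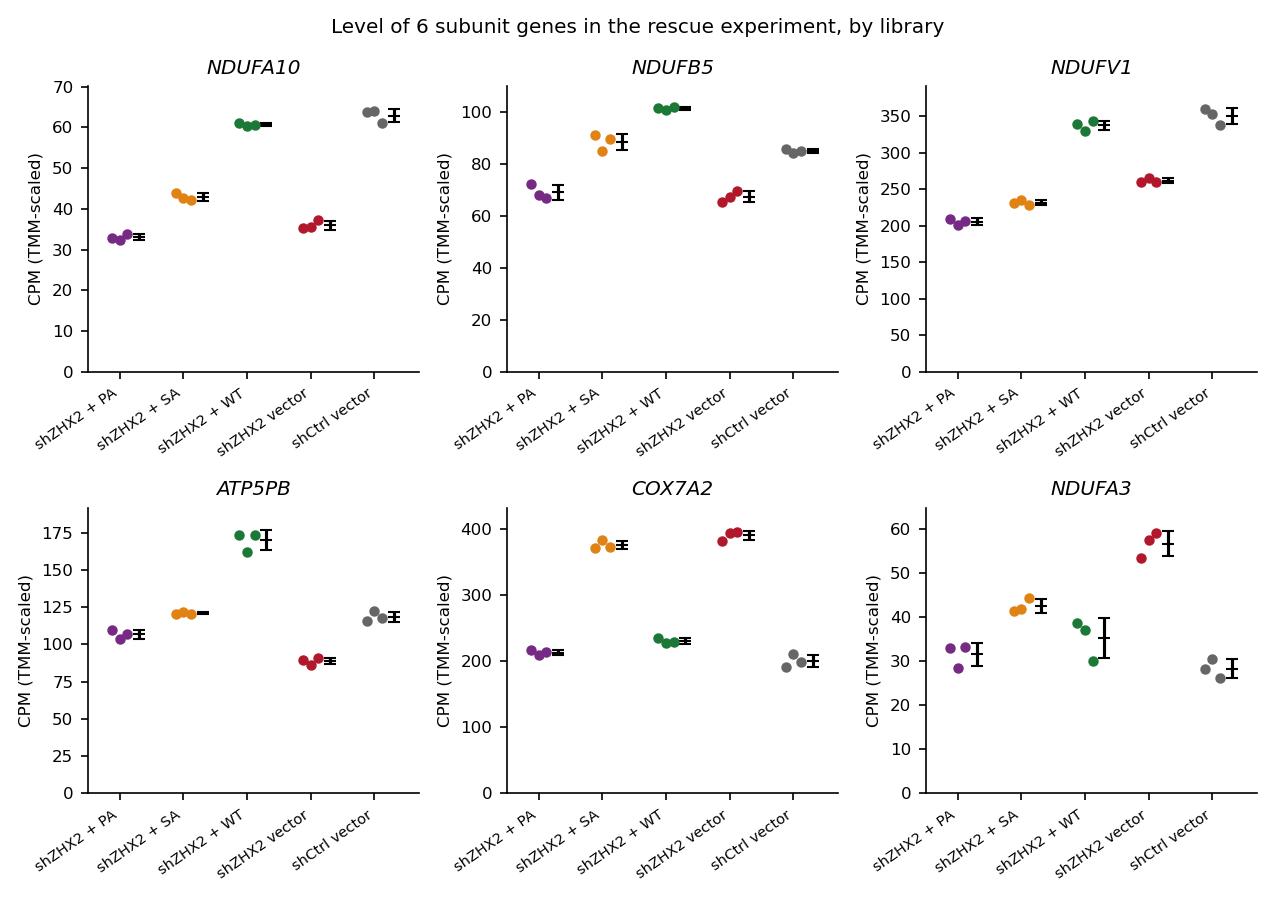
CPM (TMM-scaled) of 6 subunit genes in the rescue table, for shZHX2 cells with PA, SA, WT or vector and shCtrl cells with vector; points are libraries, bars the mean with SD (n = 3). NDUFA10, NDUFB5, NDUFV1 and ATP5PB are higher with WT than with vector, PA or SA, and COX7A2 is high with SA and vector and low with PA, WT and in shCtrl cells.

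Over all 49 genes, WT raised 16 and lowered 25 against vector (12 and 31 by library size, 14 and 23 with offsets), where 35.1% and 34.6% of all genes were higher and lower. PA raised 5 and lowered 36 (10 and 29, 4 and 33), where 24.7% and 22.9% were, and SA raised 22 and lowered 12 (22 and 13, 18 and 10), where 20.2% and 21.5% were. By library size the shares of all genes higher and lower were 29.7% and 40.1% for WT, 40.6% and 12.5% for PA and 20% and 21.8% for SA. With the offsets they were 33.1% and 32.7% for WT, 16.2% and 15.8% for PA and 14.7% and 10.7% for SA. These comparisons share the vector libraries, which also enter the comparison of shZHX2 with shCtrl. COX7A2 had 216, 209 and 213 CPM with PA, 371, 382 and 372 CPM with SA and 234, 226 and 229 CPM with WT, against 382, 394 and 394 CPM with vector. It was lower with PA (-0.88 ± 0.03) and WT (-0.76 ± 0.03), near the level of shCtrl cells, while SA changed it by -0.06 ± 0.03, which missed the threshold. In complex IV, PA lowered all 8 genes against vector (median -0.56; 7 by library size and 7 with offsets), WT raised 2 and lowered 5 (none and 6 by library size), and SA raised 2 and lowered 2.

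Between the forms, PA had none higher and 35 lower than WT with TMM, but 12 higher and 21 lower by library size, and 3 and 28 with the offsets, where 33.2% and 33.7% of all genes were higher and lower. By library size 49% of all genes were higher and 20.4% lower, and with the offsets 32.8% and 33.1%. The median over the subunit genes was -0.34 with TMM, -0.09 by library size and -0.18 with the offsets, and library size alone moved the median of all genes by 0.25. SA had 30 higher and 10 lower than WT (32 and 6, 27 and 12), where 32.1% and 32% of all genes were (38.3% and 26% by library size, 31.9% and 31.2% with the offsets). With all 3 scalings, 19 genes were lower with PA than WT, where 20.1% of all genes were, and 26 were higher and 4 lower with SA than WT, where 28.8% and 24.5% of all genes were. The largest falls with PA were those of NDUFA10 (-0.88 ± 0.04), ATP5PB (-0.67 ± 0.03), COX5B (-0.54 ± 0.03), SDHC (-0.40 ± 0.03) and UQCRC2 (-0.37 ± 0.03) in their complexes. The largest rises with SA were those of COX7A2 (0.71 ± 0.03), NDUFS3 (0.54 ± 0.06), UQCRQ (0.45 ± 0.12), ATP5F1B (0.30 ± 0.02) and SDHB (0.24 ± 0.04), and UQCRC2 was lower with SA (-0.40 ± 0.03). The genes took 0.928% to 0.966% of counts with PA, 1.22% to 1.24% with SA, 0.997% to 1.02% with WT, 1.12% to 1.13% with vector and 0.906% to 0.943% in shCtrl cells.

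The ZHX2 transcript had 54.5, 53.6 and 53.8 CPM with PA, 80.2, 82.9 and 78.4 CPM with SA and 74.0, 71.8 and 71.3 CPM with WT, against 30.5 to 34.3 CPM in shCtrl cells. All 3 forms were therefore above the control level, and PA below WT. The luminal markers summed to 29208 to 29422 CPM with PA, 32464 to 32911 with SA, 44196 to 44868 with WT, 30967 to 32265 with vector and 46373 to 47878 in shCtrl cells. The markers of other cell types summed to 19.4 to 21.7 CPM with PA, 16.1 to 19.2 with SA, 14.6 to 16.7 with WT, 29.2 to 31.8 with vector and 18.5 to 22.4 in shCtrl cells. Mitochondrially encoded transcripts were higher in 13 of 13 with PA (median 1.23) and with SA (median 1.33) than with WT, MT-ND6 most, with 81.4, 53.3 and 52.6 CPM with PA, 46.1, 49.3 and 93.3 CPM with SA and 5.25, 10.8 and 7.34 CPM with WT. Whether these differences bear on the subunit results was not tested. Of the further nuclear subunit genes, 22 of 29 were lower and none higher with PA than WT by TMM, but 13 were lower and 8 higher by library size, and 13 and 7 with the offsets. With SA, 23 were higher and 4 lower than with WT (24 and 3 by library size, 20 and 5 with the offsets).

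In the sgRNA table the ZHX2 transcript was not lower in the libraries labelled sgZHX2 or teton_sgZHX2. It had 49.6, 51.3 and 47.9 CPM in libraries labelled sgZHX2, against 43.8, 45.0 and 46.6 CPM in sgCtrl cells, a change of 0.13 ± 0.04 (adjusted p = 0.0044; 0.10 and not called without the first sgCtrl library), and 50.9, 48.8 and 48.3 CPM in libraries labelled teton_sgZHX2, against 47.3, 49.4 and 45.7 CPM in teton_control cells, a change of 0.05 ± 0.04 (adjusted p = 0.242). The kind of sgRNA system is not given in the sources used here, so every direction below is that of libraries labelled sgZHX2 or teton_sgZHX2, whose labels this level does not check. Of 49 subunit genes 21 were higher and 22 lower with sgZHX2 (21 and 22 by library size, 12 and 18 with the offsets), where 37% and 36.1% of all genes were (38.7% and 34.4%, 32.9% and 33%). With teton_sgZHX2 17 were higher and 16 lower (19 and 15, 17 and 18), where 34.4% and 34.7% of all genes were (37.6% and 31.9%, 32% and 31.5%). The medians were 0.03 with sgZHX2 and -0.00 with teton_sgZHX2. The markers of other cell types summed to 59.5 to 59.9 CPM in libraries labelled sgZHX2, against 28.9 to 31.9 CPM in sgCtrl cells, and to 51.5 to 53.6 CPM in libraries labelled teton_sgZHX2, against 31.3 to 33.2 CPM in teton_control cells. Most of each sum was COL1A1, a collagen gene, and 4 of the 14 markers were high enough to be tested. COL1A1, KRT5 and KRT14 were called higher in both comparisons, while VWF was not called with sgZHX2 and lower with teton_sgZHX2. Mitochondrially encoded transcripts took 1.67% to 1.71% of counts in libraries labelled sgZHX2, against 2.51% to 2.71% in sgCtrl cells, and 1.69% to 1.82% in libraries labelled teton_sgZHX2, against 2.84% to 2.95% in teton_control cells. The luminal markers summed to 39403 to 40291 CPM in libraries labelled sgZHX2, against 38357 to 39064 CPM in sgCtrl cells, and to 35853 to 37147 CPM in libraries labelled teton_sgZHX2, against 36105 to 36488 CPM in teton_control cells. Their part in the subunit results was not tested.

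The 2 comparisons in this table share no library. With TMM calls, 14 (66.7%) of the subunit genes higher with sgZHX2 were also higher with teton_sgZHX2, 82.4% of its 17. Of the lower genes 16 (72.7%) were also lower, 100% of its 16, and 0 subunit genes were called in opposite directions. The share of all genes called alike in both was not computed. The agreement is therefore not shown to be particular to the subunit genes. Most complex V genes were lower: 5 of its 6 genes were lower with sgZHX2 in each of the 3 scalings, and 4 with teton_sgZHX2 by TMM. ATP5PB had 124.5, 125 and 128 CPM in libraries labelled sgZHX2, against 233, 232 and 234 CPM in sgCtrl cells, a change of -0.89 ± 0.03 (adjusted p = 1.01e-29; -0.55 with the offsets). It had 148, 151 and 156 CPM in libraries labelled teton_sgZHX2, against 208, 204 and 218 CPM in teton_control cells, a change of -0.47 ± 0.03. ATP5F1C, the gamma subunit of the central stalk, changed by -0.79 ± 0.03 and -0.36 ± 0.03, ATP5F1A by -0.64 ± 0.03 and -0.31 ± 0.03, and ATP5PO by -0.72 ± 0.07 and -0.49 ± 0.07 (sgZHX2 and teton_sgZHX2 in each pair). ATP5F1D was the gene of complex V that was higher, with 134, 142 and 135 CPM in libraries labelled sgZHX2, against 84.0, 79.0 and 76.2 CPM in sgCtrl cells, a change of 0.78 ± 0.04 that was 0.18 with the offsets.

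In complex III, UQCRC2 had 155, 148 and 146 CPM in libraries labelled sgZHX2, against 287, 292 and 286 CPM in sgCtrl cells, and 179, 160.5 and 176 CPM in libraries labelled teton_sgZHX2, against 286, 288 and 302 CPM in teton_control cells. It fell by 0.95 ± 0.03 (adjusted p = 1.05e-24) and 0.77 ± 0.03 (adjusted p = 7.11e-22), by 0.75 and 0.65 with the offsets, and no libraries overlapped. CYC1 was higher by 0.51 ± 0.03 and 0.38 ± 0.03, but by 0.02 and 0.01 with the offsets. In complex I, NDUFV2 was lowest (-1.01 ± 0.16 and -0.99 ± 0.16), at 1.55, 1.63 and 1.59 CPM in libraries labelled sgZHX2, against 3.26, 3.04 and 3.35 CPM in sgCtrl cells. NDUFA11 was highest (0.94 ± 0.10 and 0.66 ± 0.10, 0.49 and 0.36 with the offsets). In complex II, SDHD fell by 0.77 ± 0.04 and 0.47 ± 0.04. In complex IV, COX5B was higher by 0.37 ± 0.07 and 0.26 ± 0.07.

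Changes in this table followed GC content closely. Across the 49 genes the Spearman rho between log2 change and GC was 0.83 with sgZHX2 and 0.78 with teton_sgZHX2, against 0.57 and 0.47 over all tested genes with a GC value, as a description of genes measured in the same libraries. For comparison, rho over the subunit genes was -0.80 for SA against vector, -0.61 for WT against vector and 0.39 for shZHX2 against shCtrl with vector. In all 3 scalings, 7 genes were higher and 12 lower with sgZHX2, where 24.4% and 23.1% of all genes were, and 11 and 9 with teton_sgZHX2, where 24.6% and 22.9% were.

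**Figure D4:**
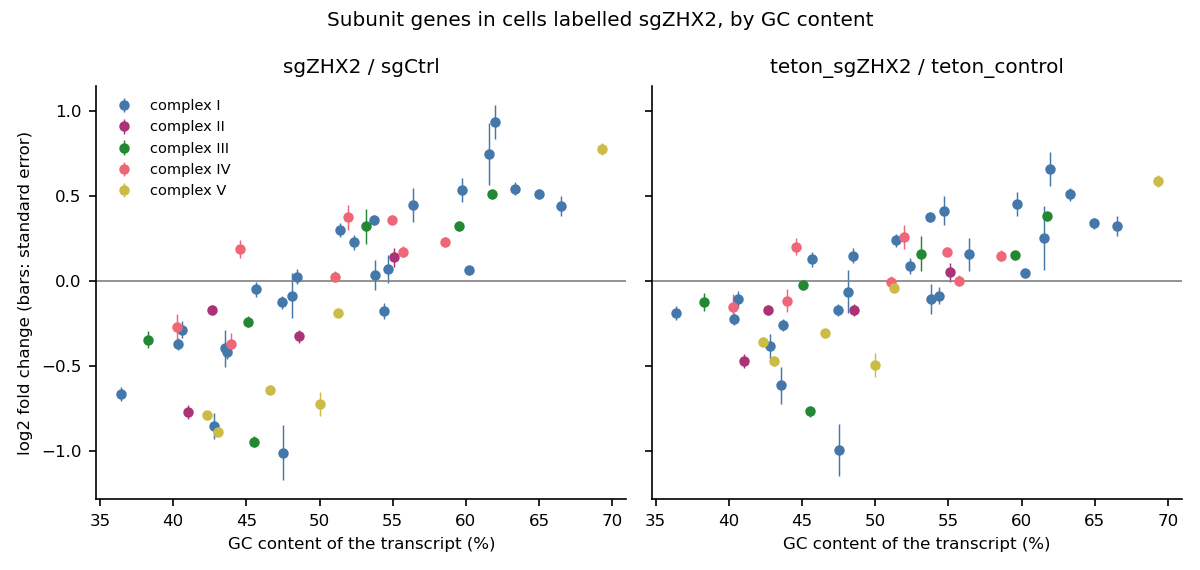
Log2 fold change of each subunit gene against the GC content of its transcripts (percent) for sgZHX2 against sgCtrl and teton_sgZHX2 against teton_control. High-GC genes such as ATP5F1D and NDUFA11 lie at the top and low-GC genes such as ATP5PB at the bottom, with rho of 0.83 and 0.78 over 49 genes.

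Of the 4 genes that fell with shZHX2 in both hairpin tables, ATP5PB also fell here, as given above, and the others changed as follows. NDUFA10 changed by -0.12 ± 0.04 with sgZHX2 and -0.17 ± 0.04 with teton_sgZHX2, NDUFB5 by -0.37 ± 0.04 and -0.22 ± 0.03 (0.09 and 0.05 with the offsets), and NDUFV1 by 0.06 ± 0.03 and 0.05 ± 0.03 (-0.43 and -0.32). The NDUFV1 call with sgZHX2 was lost without any of the 3 sgCtrl libraries or the second or the third sgZHX2 library (0.04 to 0.06). The difference between the teton_sgZHX2 and sgZHX2 effects was itself tested. It was called higher for 15 genes and lower for 6, where 12% and 8.33% of all genes were. By library size the counts were 16 and 6, where 13.3% and 7.05% of all genes were, and with the offsets 7 and 1, where 5.08% and 2.17% were. Among the genes called, NDUFA5 differed most in complex I (-0.19 ± 0.04 with teton_sgZHX2 and -0.66 ± 0.04 with sgZHX2, a difference of 0.48 ± 0.06). In complex V it was ATP5F1C that differed most (a difference of 0.43 ± 0.04).

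**Figure D5:**
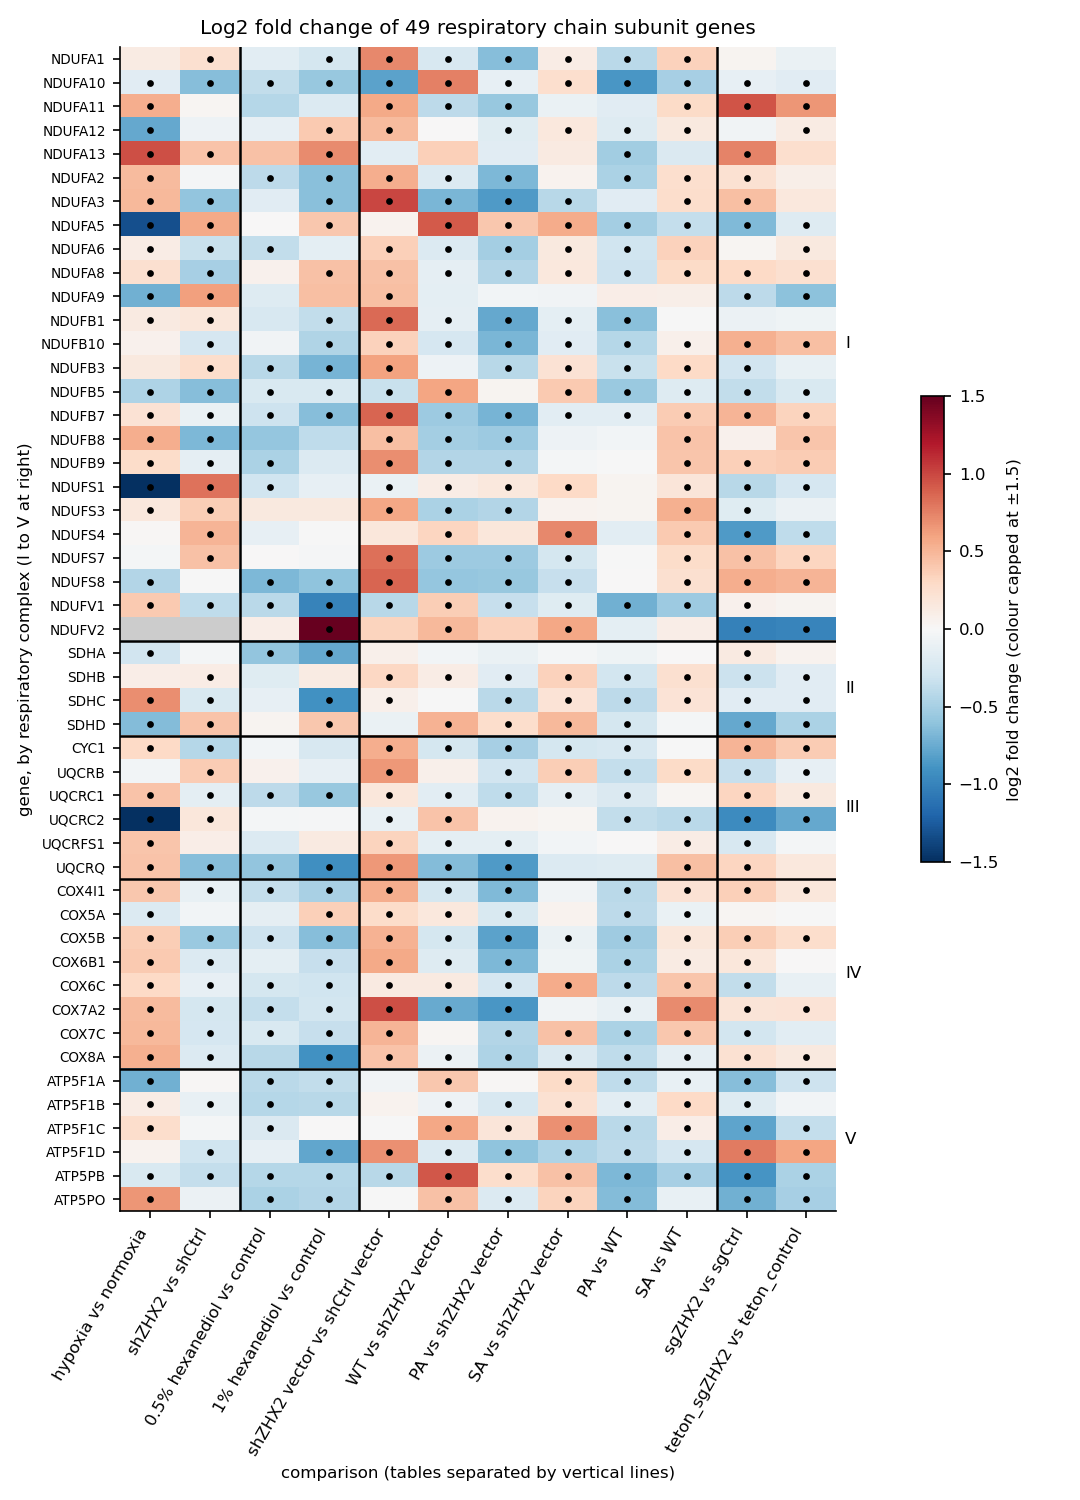
Log2 fold change (TMM scaling) of the 49 subunit genes, ordered by complex, in 12 comparisons; colour is capped at 1.5 in either direction, dots mark genes called by edgeR's quasi-likelihood test and grey marks NDUFV2, which was not tested in the shRNA table. Complex IV is mostly red in hypoxia and with shZHX2 and vector, and mostly blue with shZHX2 in the shRNA table, with hexanediol and with PA. By library size alone its median takes the other sign in hypoxia and with shZHX2 in the shRNA table.

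Further core subunits were CYC1, UQCRFS1, NDUFS3 and SDHA. CYC1 had 749, 777 and 782 CPM in hypoxia, against 645, 697 and 541 CPM in normoxia, a change of 0.29 ± 0.11 that was -0.78 with the offsets. With 1 library left out it was called only without the second normoxic library, and was otherwise 0.20 to 0.32. It changed by -0.42 ± 0.11 with shZHX2 in the shRNA table and by 0.55 ± 0.03 with shZHX2 and vector. UQCRFS1, the Rieske iron-sulphur protein of complex III, changed by 0.41 ± 0.15 in hypoxia, -0.15 ± 0.03 with WT against vector and -0.24 ± 0.03 with sgZHX2, the hypoxia call being lost without any of the 3 hypoxic libraries (0.37 to 0.45). NDUFS3, of the ubiquinone-binding arm of complex I, was higher with shZHX2 in both hairpin tables (0.37 ± 0.04 and 0.58 ± 0.06) and lower with WT against vector (-0.48 ± 0.06). SDHA changed by -0.03 ± 0.08 with shZHX2 in the shRNA table and by 0.07 ± 0.06 with shZHX2 and vector, and neither was called.

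The 13 genes not described so far, 11 of complex I and 2 of complex IV, were all tested in every table. In hypoxia 8 were higher and 1 lower (none and 11 by library size, 2 and 9 with the offsets), from -0.72 ± 0.24 for NDUFA9 (0.42 with the offsets, and -0.55 and not called without the second normoxic library) to 0.49 ± 0.04 for COX7C (0.00 by library size). With shZHX2 5 were higher and 7 lower in the shRNA table (8 and 1 by library size, 3 and 5 with the offsets), from -0.50 ± 0.04 for NDUFA8 to 0.61 ± 0.25 for NDUFA9. The NDUFA9 call was lost without the second shCtrl library or the second or the third shZHX2 library (0.46 to 0.58). For the rescue libraries, 13 of 13 were higher (13 by library size, 12 with the offsets), from 0.35 ± 0.03 for NDUFB10 (-0.06 with the offsets) to 0.87 ± 0.03 for NDUFB7. At 1% hexanediol 1 was higher and 8 lower (1 and 4 by library size, 2 and 3 with the offsets). PA against WT had none higher and 10 lower (4 and 6 by library size, 1 and 8 with the offsets), lowest in NDUFB1 (-0.63 ± 0.06), and SA against WT had 11 higher and none lower (11 and none by library size, 9 and 2 with the offsets), highest in NDUFB9 (0.41 ± 0.05). With sgZHX2 7 were higher and 3 lower (7 and 3, 3 and 2), from -0.40 ± 0.11 for NDUFA9 (0.08 with the offsets) to 0.53 ± 0.07 for NDUFB10. The values named are the lowest and highest of each comparison.

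NDUFA4L2, which rose in hypoxia, was also higher with hexanediol (1.07 ± 0.18 at 0.5% and 2.05 ± 0.17 at 1%), with shZHX2 and vector (0.91 ± 0.19, 0.58 with the offsets), with sgZHX2 (1.19 ± 0.15, 0.68 with the offsets) and with teton_sgZHX2 (0.76 ± 0.15, 0.39 with the offsets). In the shRNA table its change with shZHX2 was -0.12 ± 0.18 and was not called. Among the further nuclear subunit genes, COX7A2L, which takes part in joining complexes III and IV, was higher with shZHX2 in both hairpin tables (0.44 ± 0.03 in the shRNA table, 0.97 ± 0.03 in the rescue table), and at 1% hexanediol (0.95 ± 0.08). The small complex III subunit UQCR11 was higher with sgZHX2 (1.04 ± 0.07) and teton_sgZHX2 (0.93 ± 0.07), and with shZHX2 and vector (0.77 ± 0.07, 0.40 with the offsets), but its change with shZHX2 in the shRNA table was -0.04 ± 0.08, which was not called with TMM. COX7A2L and UQCR11 were followed across tables after their values were seen. Of 30 further nuclear subunit genes, 8 were higher and 16 lower with shZHX2 in the shRNA table with TMM, but 14 and 7 by library size, and 7 and 15 with the offsets. Among the rescue libraries 26 of 29 were higher and none lower (26 and none by library size, 22 and 3 with the offsets), and with sgZHX2 10 of 29 were higher and 9 lower (11 and 8, 11 and 7).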

How the data were processed

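PolyA RNA of T47D cells was sequenced as 150 bp read pairs in 45 libraries, per the labels' protocols. The authors deposited whole-number read counts per gene in 4 tables, not normalised; FastQC, HISAT2, featureCounts, DESeq2 and hg38 are named, per the submitters' processing notes, without roles or versions. Neither the annotation used for counting nor its strandedness is given in the sources used here. Columns were matched to samples by name. The columns named sgNC were read as sgCtrl because every other column of that table matched another group. No column was left unmatched (0). The members and the other gene lists were chosen with earlier results of these data known.

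Identifiers were matched to symbols (60370 of 60624). GC content and transcript length came from GENCODE release 29 on GRCh38, and promoters from RefSeq. Each table was fitted on its own with edgeR 4.0.16 in R 4.3.3 (filterByExpr, TMM, robust quasi-likelihood F test with all groups of the table in 1 model), leaving 14903, 16840, 14302 and 15781 genes in the shRNA, hexanediol, rescue and sgRNA tables. The biological coefficients of variation were 4.15%, 10.2%, 3.16% and 2.81%. Calls used a Benjamini-Hochberg adjusted p below 0.05 over all genes of a table, and SE was taken as the log2 fold change over the root of F. Totals were 17476890 to 19480495, 14111216 to 17713327, 18056398 to 24760885 and 21225854 to 27217814 counts per library in the same order of tables. Levels set across tables are descriptive, since each was scaled alone. Replicates differed by more than counting noise (chi-square per degree of freedom 1.70 to 25.0), so none was taken for a duplicate.

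Alternatives were library size only, DESeq2 1.42.0, its size factors in edgeR, no filter, GC and length offsets (natural splines, 5 degrees of freedom each, per library), the replicate number as a block with and without those offsets, both second treated hexanediol libraries left out, and each library left out in turn. Same-number libraries correlated over 0.1 in all 3 pairs for 0.5% and 1% hexanediol only (0.155, 0.363 and 0.150). The second library of each dose stood apart, and the values were centred on group means, which passes its deviation to the other libraries. The correlations therefore cannot show whether the numbers pair those libraries. The results given are from the fits without the block, and the blocked counts stand with the alternatives. The fits were tested on simulated counts with 200 changed genes per table. Genes named are, per comparison and complex, the largest rise and fall among called genes whose libraries did not overlap; 12 core subunits; and from the other lists the largest rise and fall and the hypoxia-linked regulators. Genes outside this rule are said to have been chosen after their values were seen. Plots were drawn with matplotlib 3.10.9.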

Additional observations from a re-analysis of the deposited data

Results flagged for a closer look

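The effect of teton_sgZHX2 against teton_control and that of sgZHX2 against sgCtrl were set against each other gene by gene, and 21 of the 49 genes differed at an adjusted p below 0.05 by edgeR's quasi-likelihood test of the difference. All values below are the teton_sgZHX2 effect minus the sgZHX2 effect, on the log2 scale. Across the 49 genes this difference followed GC content, with a Spearman rho of -0.72. Over the 15667 tested genes with a GC value rho was -0.50. Both describe genes measured in the same libraries.

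The difference was positive for 15 genes. It was largest for NDUFA5 (0.48, adjusted p = 3.95e-08), NDUFS4 (0.47, adjusted p = 0.00381), ATP5F1C (0.43, adjusted p = 2.24e-11), ATP5PB (0.42, adjusted p = 1.42e-10), NDUFB8 (0.35, adjusted p = 0.0313) and ATP5F1A (0.33, adjusted p = 6.63e-09). In NDUFA5, NDUFS4 and the 3 complex V genes both effects were below 0, and that of teton_sgZHX2 was the nearer to 0. In NDUFB8 both effects were above 0. Smaller positive differences were those of SDHD (0.30), UQCRB (0.22), UQCRFS1 (0.21), UQCRC2 (0.18), NDUFA12 (0.18), NDUFS1 (0.16), SDHB (0.16), ATP5F1B (0.15) and NDUFB5 (0.15).

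For 6 genes the difference was negative, the teton_sgZHX2 effect being the smaller rise: COX4I1 (-0.19), ATP5F1D (-0.19), UQCRC1 (-0.17), NDUFB7 (-0.17), COX6B1 (-0.17) and CYC1 (-0.13). With GC and length offsets the difference of ATP5F1D was 0.00 and that of COX4I1 -0.11. Of the 21, 8 were called in the same direction with the offsets, 7 positive (NDUFA5, ATP5F1C, ATP5PB, ATP5F1A, NDUFB8, ATP5F1B and UQCRFS1) and 1 negative (COX4I1). Leaving out single libraries ended the call of CYC1, NDUFS1, UQCRB, SDHB or NDUFB7 in at least 1 case each.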

How the results depend on the processing

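Counts of called subunit genes were the same within 1.5 times under DESeq2 and without the filter in all 28 cases. By library size alone the counts higher and lower were 3 and 35 in hypoxia, 28 and 9 with shZHX2, 2 and 14 at 0.5% hexanediol and 12 and 21 for PA against WT; 17 were lower at 1% hexanediol, 10 higher for PA against vector and 6 lower for SA against WT. With GC and length offsets, with or without the replicate block, they were 14 and 29 in hypoxia and 7 and 1 for the difference of the sgZHX2 effects, with 3 higher for PA against WT, 1 higher at 0.5% hexanediol and 12 higher with sgZHX2 (13 with the block). DESeq2's size factors in edgeR, and the replicate block alone, gave 1 higher at 0.5% hexanediol. With the replicate block, which treats libraries of the same number as paired, 12 genes were higher and 13 lower at 1% than at 0.5%. No other count moved by over 1.5 times apart from the count of 1 higher at 0.5% hexanediol.

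Leaving out single libraries, the counts higher and lower ranged over 23 to 28 and 12 to 14 in hypoxia, 10 to 14 and 23 to 24 with shZHX2, 0 to 1 and 14 to 28 at 0.5% hexanediol, 5 to 7 and 22 to 28 at 1%, 6 to 14 and 6 to 13 between the doses, 31 to 34 and 5 to 7 for shZHX2 with vector, 13 to 17 and 23 to 26 for WT, 5 to 6 and 34 to 36 for PA, 19 to 22 and 11 to 13 for SA, 0 and 34 to 36 for PA against WT, 29 to 30 and 9 to 11 for SA against WT, 18 to 21 and 22 with sgZHX2, 16 to 19 and 15 to 17 with teton_sgZHX2, and 11 to 14 and 4 to 8 for their difference.

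Single genes that changed sign are given with their log2 change. By library size these were, in hypoxia, SDHB -0.39, UQCRC1 -0.05, CYC1 -0.19, NDUFS3 -0.33, NDUFV1 -0.10, ATP5F1B -0.38, COX4I1 -0.08, UQCRFS1 -0.08 and MT-CO3 -0.02, and with shZHX2 SDHC 0.00, UQCRC1 0.08, SDHA 0.21, ATP5F1B 0.12, COX5A 0.19 and COX4I1 0.13. They were also UQCRC1 0.03, SDHA 0.19, CYC1 0.01 and ATP5F1B 0.08 for PA against WT, NDUFA10 0.03 and UQCRFS1 0.00 for PA against vector, and CYC1 0.09 for SA against WT. With the offsets, and alike with block and offsets unless given, they were in hypoxia UQCRC1 -0.46, CYC1 -0.78 (-0.77 with the block), NDUFS3 -0.63, COX8A -0.67, NDUFV1 -0.53, SDHD 0.36, ATP5F1B -0.26, COX4I1 -0.49, NDUFA13 -0.15, NDUFA9 0.42 (0.43 with the block), HIGD1A 0.55, POLRMT -0.34 and LONP1 -0.17. With shZHX2 they were UQCRC1 0.08 and ATP5F1A -0.07, and for shZHX2 with vector NDUFS1 0.20, UQCRC1 -0.01, UQCRC2 0.02, NDUFB10 -0.06 and ATP5F1A 0.12. Against vector they were NDUFS1 -0.04, UQCRC1 0.08, CYC1 0.00 and ATP5F1D 0.19 for WT, NDUFS1 -0.08 and ATP5F1A -0.12 for PA, and UQCRC1 0.04 and NDUFV1 0.01 for SA. With sgZHX2 they were NDUFS1 0.02, NDUFA10 0.05, UQCRC1 -0.15, NDUFB5 0.09, NDUFA9 0.08, SDHA -0.18 (-0.19 with the block), NDUFV1 -0.43 and UQCRFS1 0.02, and with teton_sgZHX2 NDUFS1 0.08, UQCRC1 -0.20, NDUFB5 0.05, SDHA -0.19, NDUFA5 0.10, NDUFV1 -0.32, COX4I1 -0.00 and UQCRFS1 0.16. The difference of ATP5F1D was 0.00, and with block and offsets CYC1 at 1% hexanediol was 0.20. The causes were not tested. Of 336 gene values, DESeq2 left 330 on the same side of the threshold with no called value changing sign, library size 286 and the offsets 248. Low counts limit NDUFV2, NDUFA9 and NDUFA13, and shared sequence limits genes with pseudogenes or overlapping exons.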

Other observations

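The hypoxic control groups of the 4 tables carry similar labels, yet single subunit genes stood at very different levels in them. Each table was scaled alone and the control cells differ in hairpin, vector or guide, so these values are a description without a test, and the genes were chosen after their values were seen. NDUFS1 had 8.52 to 10.2 CPM in shCtrl cells in hypoxia, 184 to 194 CPM in the hexanediol control, 44.9 to 48.1 CPM in shCtrl cells with vector and 82.7 to 92.4 CPM in sgCtrl cells. COX8A had 471 to 476 CPM in shCtrl cells in hypoxia, and 3.61 to 4.12 CPM in the hexanediol control. ATP5F1D had 111 to 117 CPM in shCtrl cells in hypoxia, and 5.74 to 7.49 CPM in the hexanediol control. COX6C ran the other way, with 113 to 118 CPM in shCtrl cells in hypoxia, 1213 to 1299 CPM in the hexanediol control, 1565 to 1785 CPM in shCtrl cells with vector and 1118 CPM in each sgCtrl library. The spread within each group was small beside these gaps. Neither the annotation nor the strand setting used for counting is given for any of the tables. COX8A shares 34.5% of its exon bases with another gene and NDUFS1 11.7% with others. COX6C has 17 named pseudogenes, and ATP5F1D has no such overlap or pseudogene. Their part in these gaps was not tested.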
